A study of Mus musculus with 48 samples.

Results

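The ATF4 integrated stress response genes are the 10 genes Atf4, Atf5, Ddit3, Ddit4, Trib3, Asns, Chac1, Psat1, Phgdh and Sesn2, found on the array by gene name. All 10 were on the array and all 10 passed the filter on dim probes, among 20487 genes tested of 37074 gene names on the array. They have 16 probes, and 13 of these passed. Liver RNA came from 48 male mice, each on its own single-color array, in 8 groups of 6 mice. The p110αhep-/- mice carried floxed p110α alleles and albumin-Cre, which deletes p110α, the catalytic PI3K subunit encoded by Pik3ca, in hepatocytes from the albumin promoter. Their p110αhep+/+ littermates carried the same floxed alleles without Cre. From 12 weeks of age both genotypes received a control (CTRL) diet or a high-fat diet (HFD) with 60% of calories from fat for 12 weeks. Livers were taken at ZT16 from mice that were fed or had been fasted for 24 h.

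The integrated stress response starts when kinases that sense amino acid shortage, misfolded protein in the endoplasmic reticulum (ER), viral RNA or heme shortage phosphorylate eIF2α. Most translation then falls while the mRNA of the transcription factor ATF4 is translated more, so that ATF4 protein can rise with little change in its mRNA. ATF4 turns on genes for amino acid synthesis and uptake, for feedback inhibitors and for regulators of mTORC1 and redox state, and in liver this program is known for its response to dietary amino acids and ER stress. The arrays measured mRNA only.

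The Pik3ca probe lies outside the deleted exons, so it gave no check of the deletion. Its log2 signal was not lower in p110αhep-/- livers (fed CTRL 13.02 to 13.33, against 12.79 to 13.09 in p110αhep+/+), and every genotype direction takes the labels as given. On each array, 52.3% to 59.3% of spots were well above background, and no spot was saturated. Each of the 6 slides held an array of every group, and the 2 washing batches of 3 slides each held 3 mice of every group. In bulk liver RNA, fewer cells of a type and less RNA per cell cannot be told apart. The 6 hepatocyte markers had a summed log2 level of 20.24 to 20.41 over all mice, although Cps1 and Tat were called in some comparisons. The 5 bile duct markers summed to 10.50 to 12.40 in p110αhep+/+ mice and to 9.13 to 10.14 in p110αhep-/- mice, with Spp1 called lower in all 4 genotype comparisons. Of 4 adipocyte markers, the defining Adipoq failed the filter, and the other 3 summed to 9.22 to 15.2 in p110αhep+/+ and 7.66 to 11.1 in p110αhep-/- mice. Only Cfd of these 3 was called, lower in p110αhep-/- in all 4 genotype comparisons and higher on HFD in all 4 diet comparisons. The median log2 fold change of the 3 was -0.07 to 0.06 in the genotype comparisons and -0.02 to 0.42 in the diet comparisons. Of 7 acinar markers, Cpa1, Cpb1, Cela3b and Pnlip failed the filter. The other 3 summed to 7.80 to 8.68 in p110αhep+/+ and 8.24 to 10.2 in p110αhep-/- mice. Only Cela2a of these 3 was called, and it was higher in p110αhep-/- in all 4 genotype comparisons. The median log2 fold change of the 3 was -0.12 to 0.23 there. The summed ranges of the macrophage list were 14.0 to 16.0, of the endothelial list 12.7 to 13.4, of the stellate list 14.3 to 15.4 and of the leukocyte list 11.4 to 12.5 over all mice. Single markers of these lists were called all the same. The endothelial Lyve1 was called lower in fed p110αhep-/- mice on CTRL diet (-1.13) and HFD (-0.82), and higher with fasting in p110αhep-/- mice on both diets (1.07 and 0.82). The bile duct marker Krt19 was called lower in p110αhep-/- in the 3 genotype comparisons other than fed CTRL and with fasting in p110αhep-/- CTRL mice (-1.05), and the stellate Lrat was lower in fed p110αhep-/- CTRL mice (-0.65). The stellate marker Col1a1 was called lower in p110αhep-/- in 3 genotype comparisons and higher on HFD in both p110αhep+/+ diet comparisons. The leukocyte markers S100a8 and S100a9 were called higher on HFD in the same diet comparisons, and lower in p110αhep-/- than in p110αhep+/+ fasted HFD mice. The part of these markers in the results of the members was not tested.

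Binding sites for ATF4 with C/EBP partners are known to contain a short composite element, so the promoter windows of the members are shown where they hold it. RefSeq sequence (GRCm38.p6) from 250 bases before to 50 bases after each start site was searched on both strands for TGATGNAA and for TGNTGCAA, which overlap in TGATGCAA. The second form was chosen after the members' windows had been read. TGATGNAA was found in 3.97% of 32851 windows and TGNTGCAA in 3.22%, and either in 6.2%. Of 12 windows of the 10 members (Atf5 and Psat1 have a pair each), 3 held TGATGNAA and 5 held either form, in the 5 genes Trib3, Asns, Chac1, Psat1 and Sesn2. A match is a description of letters, not a binding site. For 4 of these genes, the stretch upstream of the start site that holds the match is printed 5′ to 3′ on the strand of the gene, with the matched 8 bases in capitals.
Trib3 (chr2:152344061-152344133, minus strand), match starting 33 bases upstream: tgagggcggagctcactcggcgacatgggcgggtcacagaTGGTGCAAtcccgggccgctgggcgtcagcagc
Asns (chr6:7693210-7693272, minus strand), match starting 23 bases upstream: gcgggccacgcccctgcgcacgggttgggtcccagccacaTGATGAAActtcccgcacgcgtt
Chac1 (chr2:119351009-119351096, plus strand), match on the opposite strand starting 193 bases upstream: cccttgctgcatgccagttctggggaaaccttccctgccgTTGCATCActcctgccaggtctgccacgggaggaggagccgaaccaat
Psat1 (chr19:15925148-15925235, minus strand), match starting 136 bases upstream: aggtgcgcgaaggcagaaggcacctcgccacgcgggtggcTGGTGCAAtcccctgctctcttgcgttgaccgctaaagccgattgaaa
Trib3 and Psat1 held the same 8 letters, TGGTGCAA, and Asns and Chac1 held TGATGAAA and TGATGCAA. Trib3 held a further match, TGATGTAA on the opposite strand, 15 bases into the transcript. Sesn2 held TGCTGCAA on the opposite strand, 218 bases upstream. The windows of Atf4, Atf5, Ddit3, Ddit4 and Phgdh held no match of these letters.

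Across the comparisons the 10 genes did not move as a block. Each gene is represented by its brightest kept probe, and it was called when the limma test gave a Benjamini-Hochberg adjusted p of at most 0.05 over all probes with a fold change over 1.5. Trib3 was called in 7 of the 12 pairwise comparisons, Psat1 in 4, Chac1 and Ddit4 in 3 each and Ddit3 in 2, while Atf4, Atf5, Asns, Phgdh and Sesn2 were called in 0. Sesn2 passed the adjusted p alone in 7 comparisons and Atf4 in 5, with folds under the threshold. Of all 40 tests of fasting over the members (10 genes in 4 settings), 8 were called, 6 higher and 2 lower. Of 40 genotype tests 4 were called, all lower in p110αhep-/-. The second largest difference of the 40 was not called and had the other sign, that of Chac1 in fed CTRL mice (1.09, adjusted p = 0.0984). By adjusted p alone 9 passed, and 4 of these were higher in p110αhep-/- (Sesn2 in 3 settings and Atf4 in fasted HFD mice). The share of all tested genes passing by adjusted p alone was 21.5% in fed CTRL, 32.9% in fed HFD, 24.8% in fasted CTRL and 36.8% in fasted HFD mice. Of all genes called for genotype, more were lower than higher in each setting (448 of 762 in fed CTRL, 827 of 1278 in fed HFD, 390 of 663 in fasted CTRL and 865 of 1339 in fasted HFD mice). Of 40 diet tests 7 were called, all higher on HFD. Of all genes called for diet, 543 of 770 were higher on HFD in fed p110αhep+/+, 264 of 475 in fed p110αhep-/-, 375 of 575 in fasted p110αhep+/+ and 188 of 387 in fasted p110αhep-/- mice.

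**Figure D1:**
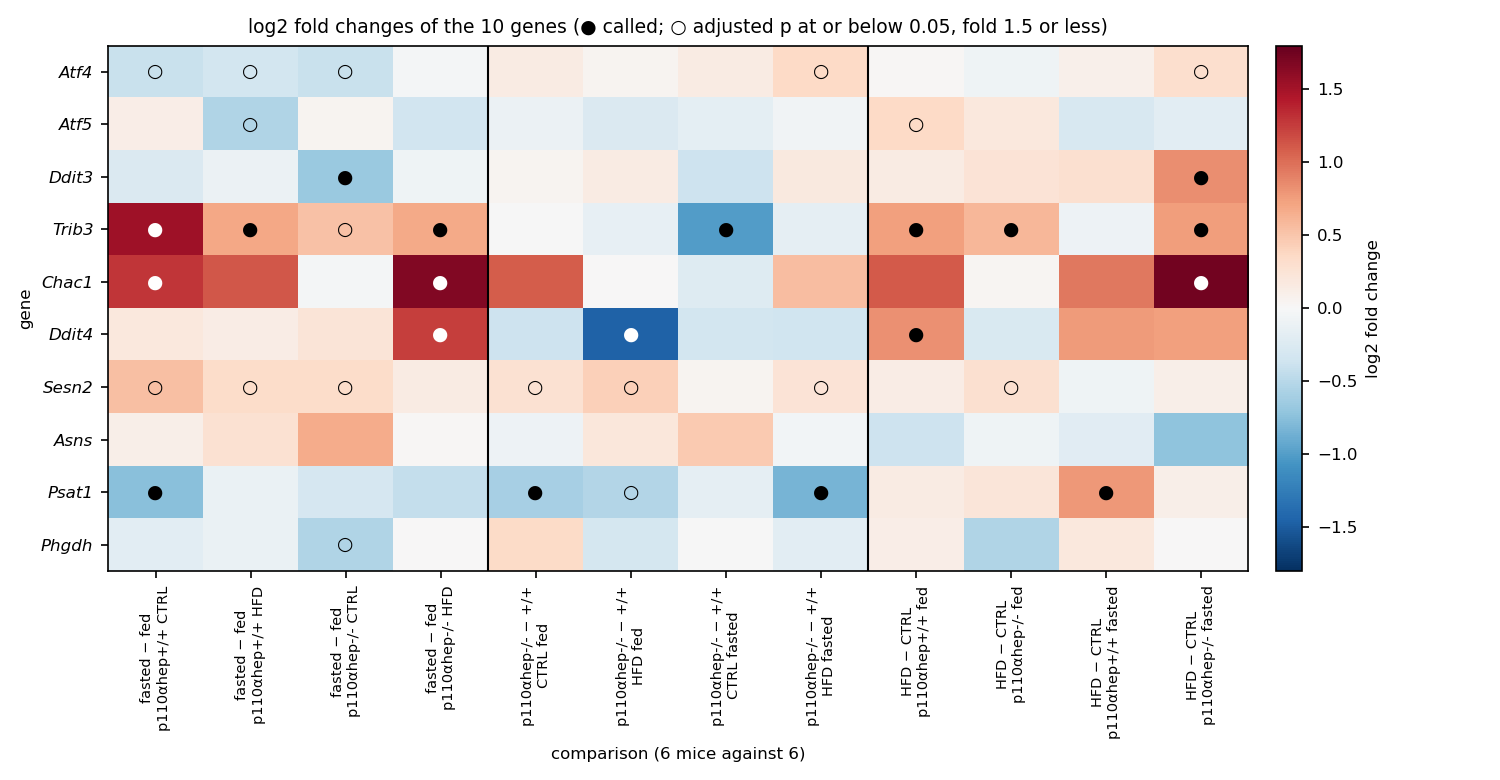
Log2 fold changes of the 10 genes (rows) in the 12 pairwise comparisons (columns), each of 6 mice against 6. Filled circles are called results and open circles passed the adjusted p with a fold of 1.5 or less. Trib3 has 7 filled circles, and the row of Asns has none of either kind.

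For fasting, 3 of 10 members were called in p110αhep+/+ mice on CTRL diet (Trib3 and Chac1 higher, Psat1 lower), where 5.45% of all genes tested were called. On HFD in the same genotype 1 was called (Trib3, higher) against 4.71% of genes. In p110αhep-/- mice on CTRL diet 1 was called (Ddit3, lower) against 7.07%, and on HFD 3 were called (Trib3, Chac1 and Ddit4, higher) against 5.9%. For genotype, 1 member was called in each setting: Psat1 in fed mice on CTRL diet (background 3.72%), Ddit4 in fed mice on HFD (6.24%), Trib3 in fasted mice on CTRL diet (3.24%) and Psat1 in fasted mice on HFD (6.54%). For diet, 2 were called in fed p110αhep+/+ mice (Trib3 and Ddit4, background 3.76%), 1 in fed p110αhep-/- mice (Trib3, 2.32%), 1 in fasted p110αhep+/+ mice (Psat1, 2.81%) and 3 in fasted p110αhep-/- mice (Trib3, Chac1 and Ddit3, 1.89%). With 10 genes, a single call is already 10% of the list. The median log2 fold change of the list lay between -0.17 and 0.20 over the 12 comparisons. The fasting, genotype and diet comparisons share groups of mice, so their values are not independent of each other.

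Trib3 encodes a pseudokinase that binds AKT and ATF4 and acts as a feedback inhibitor, and it had the most called results. In p110αhep+/+ mice on CTRL diet, fed log2 signals were 8.05 to 8.85 (median 8.34) and fasted ones 9.41 to 10.45 (median 9.96). The fed range of p110αhep-/- mice on CTRL diet was 8.08 to 8.81 (median 8.37) and the fasted range 8.63 to 9.65 (median 8.96). On HFD, p110αhep+/+ mice ranged from 8.96 to 9.35 fed (median 9.17) and from 9.66 to 9.99 fasted (median 9.91). The fed and fasted p110αhep+/+ mice did not overlap on either diet, and the p110αhep-/- mice did. Trib3 in p110αhep-/- mice on HFD was 8.10 to 9.56 fed (median 8.99) and 9.21 to 10.34 fasted (median 9.63).

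Fasting raised Trib3 by 1.52 ± 0.17 on the log2 scale (SE, n = 6 per group), a 2.87-fold change, in p110αhep+/+ mice on CTRL diet (adjusted p = 1.32e-09). The rise was 0.70 ± 0.16 on HFD (adjusted p = 0.000809). The difference in p110αhep-/- mice was 0.52 ± 0.17 on CTRL diet (adjusted p = 0.0131), 1.44-fold and so under the fold threshold. It was called with the processed signal (0.62), without array weights (0.59) and in 4 fits with a mouse left out (0.59 to 0.62). On HFD it was 0.68 ± 0.19 (adjusted p = 0.00469). In this last comparison the difference was 0.27 in washing batch 1 and 1.25 in batch 2, each of 3 mice against 3. Without replicate 1 of the fasted p110αhep-/- HFD mice it was 0.56, under the fold threshold.

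The fasting response of Trib3 on CTRL diet was smaller in p110αhep-/- than in p110αhep+/+ mice, by a genotype by fasting interaction of -0.996 ± 0.24 (adjusted p = 0.0109, with 1.31% of all genes called in this interaction). This held with each mouse left out, and without array weights it was -0.93 with an adjusted p of 0.0552. Fasted p110αhep-/- mice on CTRL diet were 2.00-fold below p110αhep+/+ mice (-1.001 ± 0.16, adjusted p = 1.03e-05), and 5 of 6 lay below every p110αhep+/+ mouse. Within the washing batches this genotype difference was -0.72 and -1.13. In the same comparison the blood marker Alas2 (-1.06), Col1a1 (-0.99), Krt19 (-0.73), Spp1 (-1.88) and Cfd (-5.45) were called lower and Cela2a higher (0.999). The summed level of the 3 blood markers was 16.49 to 17.79 in these p110αhep+/+ and 16.56 to 17.47 in these p110αhep-/- mice. All 3 blood markers were called lower with fasting in p110αhep-/- CTRL mice (-0.87 to -0.72) and 0 of them in p110αhep+/+ CTRL mice, and the part of these markers in the Trib3 results was not tested. In fed mice on CTRL diet the genotype difference of Trib3 was -0.00 with an adjusted p of 0.99. On HFD the interaction was -0.02 (adjusted p = 0.988), where 0 members and 1.37% of all genes were called. Fasted mice on HFD differed by -0.16 between genotypes (adjusted p = 0.52), and the genotype by diet interaction in fasted mice was 0.84 ± 0.24 (adjusted p = 0.0333, with 1.85% of genes called). In fed mice this interaction was -0.14 for Trib3 (adjusted p = 0.827), and 0 members and 1.34% of genes were called. The interaction in fasted mice missed the threshold when any of 8 fasted mice was left out (p110αhep+/+ CTRL replicate 6, p110αhep+/+ HFD replicates 2 and 4, p110αhep-/- CTRL replicates 2, 3 and 4, p110αhep-/- HFD replicates 1 and 3), with values from 0.72 to 0.83 and adjusted p up to 0.0781. It was called in 11 of 14 alternative settings (adjusted p up to 0.112).

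HFD raised Trib3 in fed p110αhep+/+ mice by 0.73 ± 0.16 (adjusted p = 0.000827), with no overlap between the diets. It was higher by 0.60 ± 0.18 in fed p110αhep-/- mice (adjusted p = 0.0219), a 1.51-fold change at the edge of the threshold that was called in 7 of 14 alternative settings. It was lost without fed p110αhep-/- CTRL replicate 2, 3 or 4 or HFD replicate 4, 5 or 6 (0.48 to 0.57, adjusted p up to 0.0853). In fasted p110αhep-/- mice the rise on HFD was 0.75 ± 0.18 (adjusted p = 0.00335), with 0.39 and 0.97 in the washing batches. In fasted p110αhep+/+ mice the diet difference was -0.09 (adjusted p = 0.755). The diet by fasting interaction of Trib3 in p110αhep+/+ mice was -0.82 ± 0.23 (adjusted p = 0.0458, with 0.893% of genes called), and it passed in only 6 of 24 fits with a mouse left out, where it ranged from -0.93 to -0.73, and in 7 of 14 alternative settings (adjusted p up to 0.145). The same interaction in p110αhep-/- mice was 0.16 (adjusted p = 0.783), and 0 members and 2.88% of genes were called. Ordered by mean, Trib3 was thus lowest in the fed CTRL groups of both genotypes (8.42 and 8.43), and highest in the fasted p110αhep+/+ groups on CTRL diet (9.94) and HFD (9.87). The neighbors at either end of this order differed by less than their SDs, which were 0.30 and 0.31 at the low end and 0.37 and 0.12 at the high end.

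**Figure D2:**
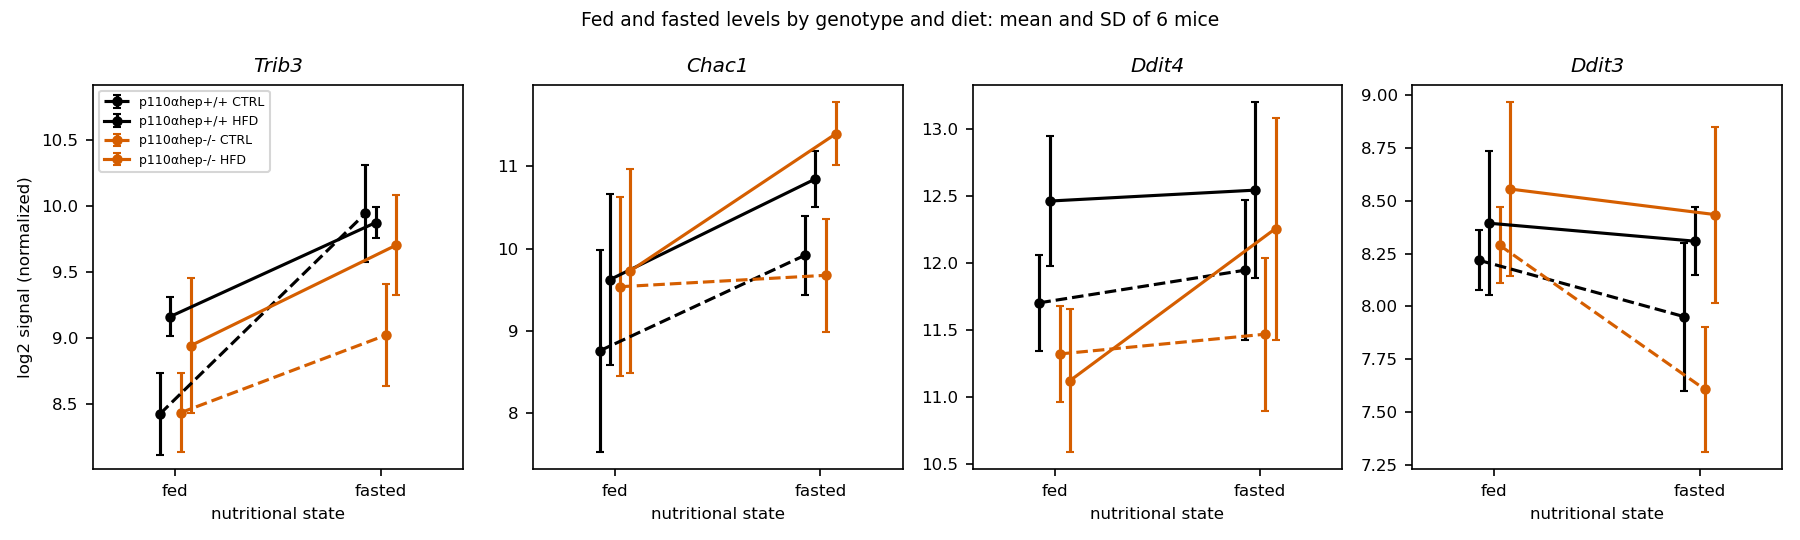
Mean and SD (n = 6 mice) of the normalized log2 signal of Trib3, Chac1, Ddit4 and Ddit3 in fed and fasted livers, by genotype (black p110αhep+/+, orange p110αhep-/-) and diet (dashed CTRL, solid HFD). The Trib3 line of p110αhep+/+ mice on CTRL diet climbs from 8.42 to 9.94 and that of p110αhep-/- mice from 8.43 to 9.02.

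Atf4 encodes the transcription factor that drives the program. In p110αhep+/+ mice on CTRL diet the Atf4 signal (log2) ran from 13.90 to 14.27 fed (median 14.17) and from 13.57 to 13.95 fasted (median 13.73). In p110αhep-/- mice on CTRL diet it ran from 14.12 to 14.39 fed (median 14.28) and from 13.72 to 13.99 fasted (median 13.88), with no overlap. The mRNA was thus lower after fasting, in the direction opposite to Trib3. The difference was -0.40 ± 0.09 in both genotypes on CTRL diet (adjusted p = 0.000432 in p110αhep+/+ and 0.00048 in p110αhep-/-) and -0.33 ± 0.09 in p110αhep+/+ mice on HFD (adjusted p = 0.00258), all under the fold threshold. In p110αhep-/- mice on HFD it was -0.03 (adjusted p = 0.867), and there the fasted and fed medians were 14.26 and 14.25. The fasted p110αhep-/- HFD mice were 0.36 ± 0.09 above the fasted p110αhep+/+ HFD mice (adjusted p = 0.00266, 1.28-fold). By the brightest Atf4 probe the genotype difference was 0.15 in fed CTRL, 0.05 in fed HFD and 0.15 in fasted CTRL mice, none passing the adjusted p. A second Atf4 probe gave fasting differences of -0.36 and -0.33 in p110αhep+/+ mice on CTRL diet and HFD, and of -0.44 and -0.04 in p110αhep-/- mice. Its means in p110αhep+/+ and p110αhep-/- mice were 10.61 and 10.89 in fed CTRL and 10.53 and 10.79 in fed HFD mice. In fasted mice they were 10.24 and 10.45 on CTRL diet and 10.22 and 10.72 on HFD. By this second probe the p110αhep-/- mean was thus the higher one in every setting.

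Atf5, a paralog of Atf4 that acts in the mitochondrial stress response, was bright in every group. In p110αhep+/+ mice on HFD it was 16.16 to 16.50 fed (median 16.27) and 15.59 to 15.95 fasted (median 15.76), with no overlap between fed and fasted mice. The fasting difference there was -0.54 ± 0.13 (adjusted p = 0.00128, 1.45-fold). On CTRL diet it was 0.12 (adjusted p = 0.546), and the diet by fasting interaction in p110αhep+/+ mice was -0.65 ± 0.18 (adjusted p = 0.0482). A second Atf5 probe gave -0.76 for this interaction (adjusted p = 0.0336). The main probe's call is at the edge of the threshold. It held in 8 of 14 alternative settings and in 5 of 24 fits with 1 p110αhep+/+ mouse left out (values from -0.75 to -0.58, adjusted p 0.0222 to 0.107). For p110αhep-/- mice on HFD the fasting difference of Atf5 was -0.34, and 5 of 6 fasted mice lay below every fed mouse. On CTRL diet it was 0.04, and neither passed the adjusted p. Fed p110αhep+/+ mice had 0.36 more Atf5 signal on HFD (adjusted p = 0.0393), under the fold threshold.

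Ddit3 encodes CHOP, a transcription factor of the later, damage-linked phase of ER stress. In p110αhep-/- mice on CTRL diet it was 8.02 to 8.54 fed (median 8.27) and 7.24 to 7.95 fasted (median 7.65), and on HFD the fasted mice were at 7.996 to 9.09 (median 8.31). The fasted CTRL mice lay below both other groups with no overlap. Ddit3 fell by 0.67 ± 0.17 with fasting (adjusted p = 0.00149), and HFD raised it in fasted p110αhep-/- mice by 0.83 ± 0.17 (adjusted p = 0.00106, 1.78-fold). Both directions held in each washing batch (-0.60 and -0.76 for fasting, 0.73 and 0.92 for diet). A second Ddit3 probe, to another transcript, gave a difference of -0.40 for fasting (adjusted p = 0.0322) and 0.60 for diet (adjusted p = 0.00811), and with the median of both probes the fasting difference was -0.53, under the fold threshold. In p110αhep+/+ mice the fasting difference on CTRL diet was -0.25 (adjusted p = 0.254), and the genotype by fasting interaction of Ddit3 was -0.42 (adjusted p = 0.352). Diet by fasting in p110αhep-/- mice was 0.59 (adjusted p = 0.154), called without fed HFD replicate 6 (0.76, adjusted p = 0.0375). The 3 blood markers (Hbb-b1, Hba-a1 and Alas2) were called lower with fasting in the same p110αhep-/- CTRL comparison, and 2 of them higher in the same diet comparison. Their summed level was 17.1 to 18.0, 16.6 to 17.5 and 16.7 to 18.4 in the fed CTRL, fasted CTRL and fasted HFD mice. Other markers called lower in this fasting comparison were Col1a1 (-1.17), Krt19 (-1.05) and Spp1 (-0.71), while Lyve1 (1.07) and Tat (0.68) were called higher. Cela2a (1.09) and Cfd (2.98) were called higher in the diet comparison. The part of these markers in the Ddit3 results was not tested.

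**Figure D3:**
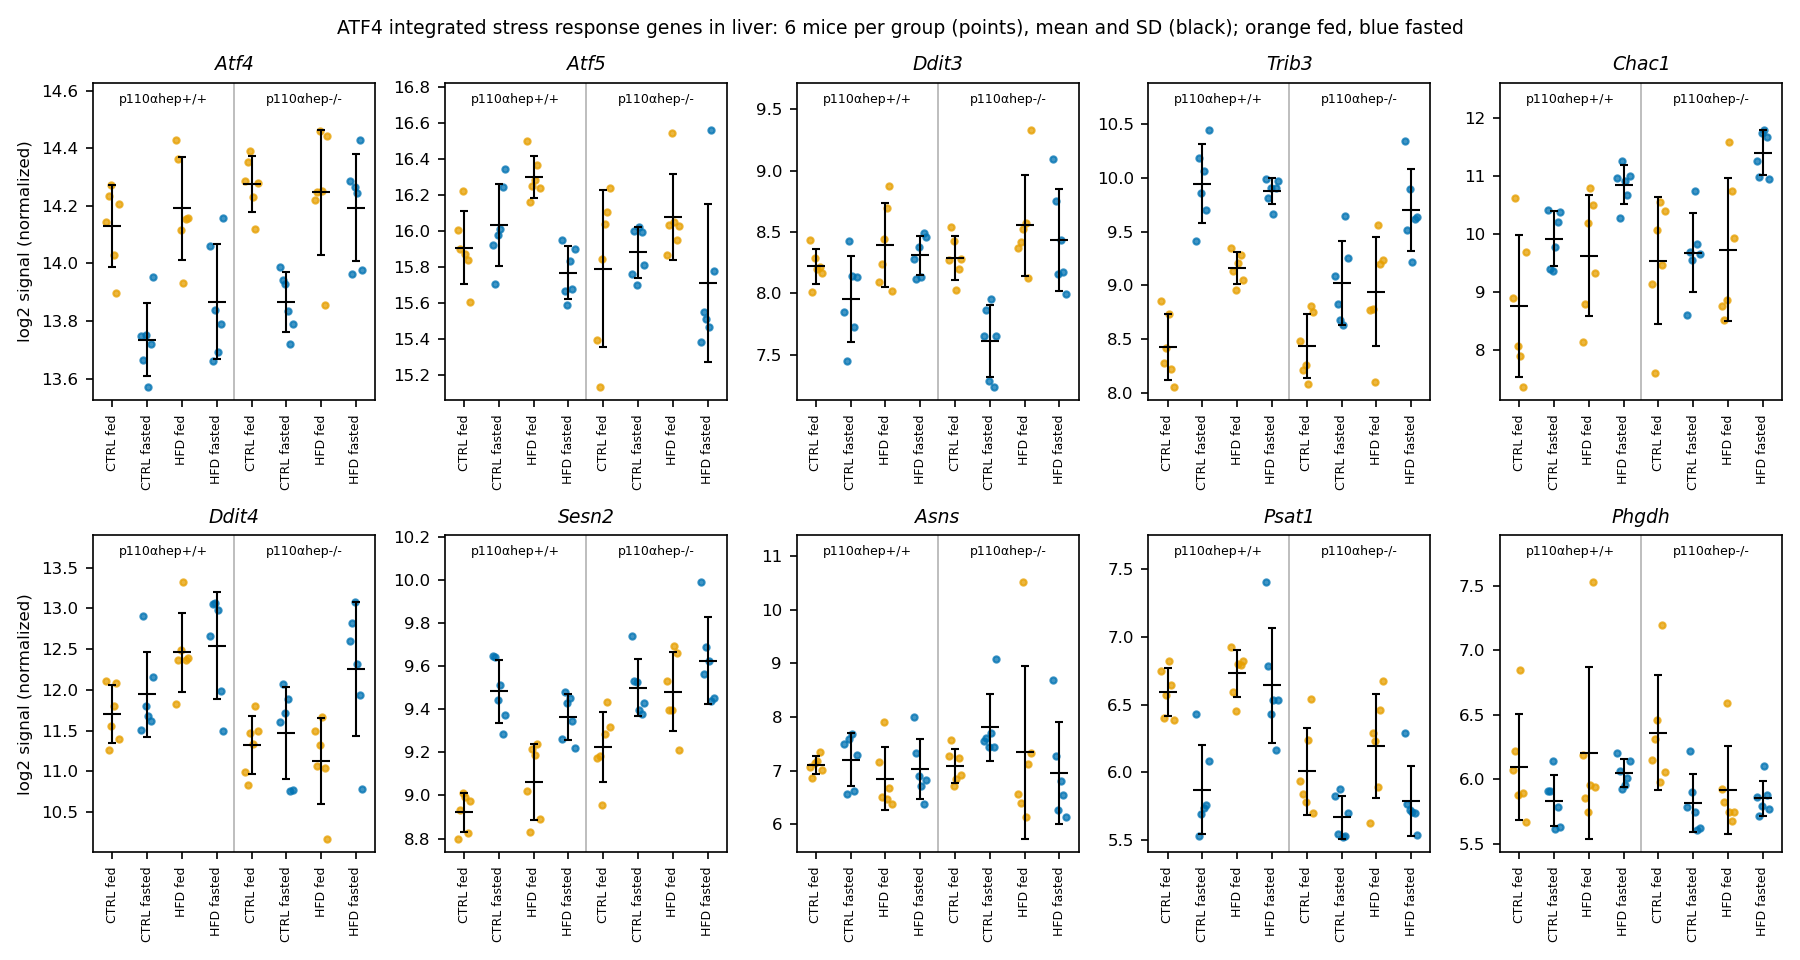
Normalized log2 signal of each of the 10 genes in every mouse (points, orange fed, blue fasted) with the mean and SD of each group of 6 in black, p110αhep+/+ on the left of each panel and p110αhep-/- on the right. Each panel has its own log2 axis, so levels are not compared between genes. Chac1 is widely spread in fed mice, and a single p110αhep-/- HFD fed mouse stands at 10.52 in the Asns panel.

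Chac1 encodes an enzyme that degrades glutathione and is a sensitive target of ATF4 and CHOP. Fed log2 signals ran from 7.37 to 10.62 (median 8.49) in p110αhep+/+ CTRL mice, from 8.15 to 10.79 (median 9.75) in p110αhep+/+ HFD mice, from 7.61 to 10.56 (median 9.76) in p110αhep-/- CTRL mice and from 8.52 to 11.58 (median 9.40) in p110αhep-/- HFD mice. Fasted signals were 9.36 to 10.41 (median 9.99), 10.28 to 11.26 (median 10.94), 8.60 to 10.74 (median 9.67) and 10.94 to 11.79 (median 11.46) in the same order. The SD was 1.04 to 1.24 in the fed groups and 0.34 to 0.68 in the fasted groups, so fed mice varied more than fasted mice in each of the 4 settings, as a description. The fasted p110αhep-/- HFD mice were the highest group.

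Fasting raised Chac1 by 1.29 ± 0.46 in p110αhep+/+ mice on CTRL diet (adjusted p = 0.0279) and by 1.66 ± 0.51 in p110αhep-/- mice on HFD (adjusted p = 0.0125, 3.17-fold). The first call was lost without fed replicate 3, 4 or 5 or fasted replicate 5 or 6 of the p110αhep+/+ CTRL mice, with values from 1.01 to 1.21 and adjusted p up to 0.106. It was also lost with no filter on dim probes (1.21, adjusted p = 0.0755) and without array weights (1.16, adjusted p = 0.0747). The second was lost without fed replicate 1 (1.35, adjusted p = 0.0589) or fed replicate 2 (1.204, adjusted p = 0.108) of the p110αhep-/- HFD mice. The fasting difference was 1.12 in p110αhep+/+ mice on HFD (adjusted p = 0.0541), and 5 alternative settings called it (1.11 to 1.24, adjusted p from 0.0347), as did 13 of 48 fits with 1 mouse of any group left out, the largest without fed p110αhep+/+ HFD replicate 4 (1.49, adjusted p = 0.0125). The difference was -0.03 in p110αhep-/- mice on CTRL diet (adjusted p = 0.97), where the washing batches gave -0.55 and 0.83. The differences between these responses did not pass the test, with -1.32 for genotype by fasting on CTRL diet (adjusted p = 0.275) and 1.69 for diet by fasting in p110αhep-/- mice (adjusted p = 0.138). Without fed p110αhep-/- HFD replicate 4 the latter was called (2.10, adjusted p = 0.0478). In fasted p110αhep-/- mice, HFD raised Chac1 by 1.73 ± 0.49 (adjusted p = 0.0157, 3.32-fold), and all 6 HFD mice lay above all CTRL mice. That difference was 1.42 with an adjusted p of 0.0702 without replicate 1 of the fasted p110αhep-/- CTRL mice. Hbb-b1 (0.93), Hba-a1 (0.80), Cela2a (1.09) and Cfd (2.98) were called higher in the same diet comparison. With fasting, Lrat (-0.68) and Col1a1 (-0.83) were called lower and Tat (0.88) higher in p110αhep+/+ CTRL mice. Lyve1 (0.82) and Cela2a (1.52) were called higher and Col1a1 (-0.81) and Spp1 (-0.66) lower with fasting in p110αhep-/- HFD mice. The part of these markers in the Chac1 results was not tested. In p110αhep+/+ mice the diet difference was 1.11 ± 0.45 fed (adjusted p = 0.0682) and 0.94 ± 0.45 fasted (adjusted p = 0.16, with 5 of 6 HFD mice above all CTRL mice), and some other settings called each of them (1.22 with slide as a block, adjusted p = 0.0393, and 0.94 in a fit of the groups compared alone, adjusted p = 0.0129). In fed p110αhep-/- mice it was 0.04 (adjusted p = 0.978). Between genotypes, Chac1 in fed CTRL mice was 1.09 ± 0.47 higher in p110αhep-/- mice (2.12-fold, adjusted p = 0.0984), with 1.23 and 0.32 in the washing batches. This was called without p110αhep+/+ replicate 2 or 6 or p110αhep-/- replicate 2 (1.33 to 1.35, adjusted p 0.0335 to 0.0424) and in 0 of 14 alternative settings (0.78 to 1.16).

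Ddit4 encodes REDD1, an inhibitor of mTORC1 that responds to stress, glucocorticoids and insulin. In fed mice on HFD it was 11.83 to 13.32 (median 12.38) in p110αhep+/+ and 10.17 to 11.67 (median 11.19) in p110αhep-/- livers, with no overlap. In fasted mice on HFD it was 11.49 to 13.06 (median 12.82) and 10.78 to 13.08 (median 12.46), ranges that overlap. On CTRL diet the fed medians were 11.68 and 11.40 and the fasted medians 11.74 and 11.66. Fed p110αhep-/- mice on HFD were thus the group with the lowest median and were 2.75-fold below their p110αhep+/+ controls (log2 fold change -1.46 ± 0.29, adjusted p = 0.000124). In washing batch 1 the difference was -1.10 and in batch 2 it was -1.57. Fasting raised Ddit4 in p110αhep-/- mice on HFD by 1.24 ± 0.32 (adjusted p = 0.00255), and 5 of 6 fasted mice were above all fed mice. Among the markers, Lyve1, Krt19, Col1a1, Spp1 and Cfd were called lower and Cps1 and Cela2a higher between genotypes in fed HFD mice. In the same fasting comparison Lyve1 and Cela2a were called higher and Col1a1 and Spp1 lower, and their part in the Ddit4 results was not tested. The corresponding difference in p110αhep+/+ mice was 0.13 (adjusted p = 0.774), while the genotype by fasting interaction of 1.11 ± 0.42 did not pass (adjusted p = 0.142), nor did the diet by fasting interaction of 1.01 ± 0.43 in p110αhep-/- mice (adjusted p = 0.154). Without fasted p110αhep-/- HFD replicate 6 both were called (1.397, adjusted p = 0.0367, and 1.301, adjusted p = 0.037). HFD raised Ddit4 in fed p110αhep+/+ mice by 0.82 ± 0.28 (adjusted p = 0.0276), and without replicate 4 of the fed p110αhep+/+ HFD mice this was 0.58 with an adjusted p of 0.143. Leaving out replicate 2, 3 or 6 of the fed p110αhep+/+ CTRL mice also lost the call, with 0.75, 0.77 and 0.73, as did 3 of 14 alternative settings (adjusted p up to 0.0825). The diet difference was of similar size in fasted mice, at 0.76 ± 0.28 in p110αhep+/+ (adjusted p = 0.058) and 0.74 ± 0.30 in p110αhep-/- (adjusted p = 0.113). Some fits with a mouse left out called the first (0.76 to 0.94, adjusted p 0.0144 to 0.0458). The second was called only without fasted p110αhep-/- HFD replicate 6 (1.03, adjusted p = 0.0155) among these fits. In fed p110αhep-/- mice the diet difference was -0.28 (adjusted p = 0.658).

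Sesn2 encodes sestrin 2, a leucine sensor that restrains mTORC1. On CTRL diet it was 8.80 to 9.01 fed (median 8.95) and 9.28 to 9.65 fasted (median 9.48) in p110αhep+/+ mice, with no overlap, and 8.96 to 9.43 fed (median 9.23) and 9.38 to 9.74 fasted (median 9.48) in p110αhep-/- mice. Fasting was followed by higher signals, by 0.55 ± 0.09 (adjusted p = 3.13e-06), 0.33 ± 0.08 (adjusted p = 0.00194) and 0.32 ± 0.09 (adjusted p = 0.00332) in p110αhep+/+ CTRL, p110αhep+/+ HFD and p110αhep-/- CTRL mice. Each of these was under the fold threshold, the first at 1.46-fold. The first was called with the processed signal (0.61, adjusted p = 2.46e-06) and without fasted p110αhep+/+ CTRL replicate 5 (0.59, adjusted p = 1.97e-06). The difference in p110αhep-/- mice on HFD was 0.14 (adjusted p = 0.293). Fed p110αhep-/- mice were above fed p110αhep+/+ mice by 0.27 ± 0.09 on CTRL diet (adjusted p = 0.0243) and by 0.43 ± 0.09 on HFD (adjusted p = 0.000204, 1.35-fold), the latter being 0.62 and 0.22 in the washing batches. The SDs of Sesn2 were 0.09 to 0.20 over the 8 groups.

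Asns encodes asparagine synthetase, a classic target of ATF4. Its log2 signal was 6.87 to 7.35 (median 7.11) in fed p110αhep+/+ mice on CTRL diet and 6.56 to 7.68 (median 7.39) in fasted ones. In p110αhep-/- mice on CTRL diet the ranges were 6.71 to 7.56 fed (median 7.08) and 7.44 to 9.08 fasted (median 7.58). On HFD, p110αhep+/+ mice had 6.38 to 7.91 fed (median 6.59) and 6.38 to 7.99 fasted (median 6.86), and p110αhep-/- mice had 6.14 to 10.52 fed (median 6.83) and 6.14 to 8.70 fasted (median 6.67). The groups overlapped in each of the 12 comparisons, and single mice stood far above the rest. The largest differences were 0.67 ± 0.34 for fasting in p110αhep-/- CTRL mice (adjusted p = 0.126) and -0.73 ± 0.36 for diet in fasted p110αhep-/- mice (adjusted p = 0.204). Without fasted HFD replicate 1 the latter was -1.08 with an adjusted p of 0.0425. Asns was called in 0 of 12 comparisons and also missed the adjusted p alone in each. In a fit of the groups compared alone, the fasting difference in p110αhep-/- CTRL mice was called (0.67, adjusted p = 0.0255).

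The 3 highest Asns mice of all 48 were p110αhep-/-: fed HFD replicate 3 at 10.52, fasted CTRL replicate 6 at 9.08 and fasted HFD replicate 1 at 8.70. A second Asns probe, elsewhere in the transcript, was near background (raw log2 signals 4.95 to 6.74, median 5.32) and failed the filter. It was well above background on 3 of 48 arrays, and these were the same 3 mice, at 6.74, 6.19 and 6.02. This pattern was seen after the values had been read and concerns single mice, so it is given without a test. In the mouse at 10.52, Atf4 (14.46), Atf5 (16.54) and Phgdh (6.59) were also the highest of their group, while Trib3 was the lowest of its group at 8.10. The array of this mouse had the lowest weight of all 48 in the fit (0.354).

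**Figure D4:**
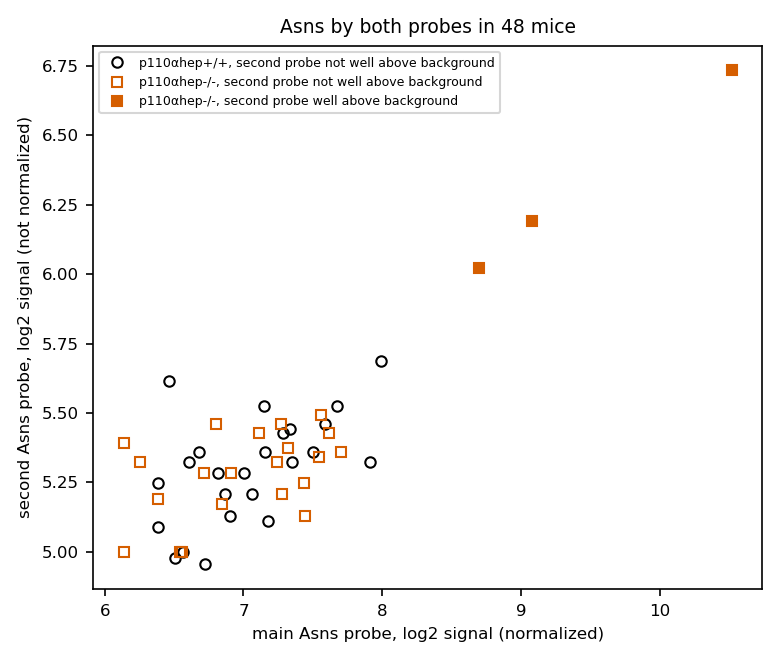
Asns in 48 mice by its main probe (x axis, normalized log2 signal) and by a second probe that failed the filter (y axis, log2 signal without normalization), p110αhep+/+ mice as circles and p110αhep-/- mice as squares. Filled symbols mark the 3 arrays on which the second probe was well above background, and these are the 3 mice farthest to the right.

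Psat1 encodes phosphoserine aminotransferase, the middle step of serine synthesis. Its probe was dim and was well above background on 43 of 48 arrays, and its other 2 probes failed the filter. In fed mice on CTRL diet it was 6.39 to 6.82 (median 6.61) in p110αhep+/+ and 5.70 to 6.54 (median 5.89) in p110αhep-/- livers. In fasted mice on HFD it was 6.16 to 7.40 (median 6.53) and 5.54 to 6.29 (median 5.71). In each setting 5 of 6 p110αhep-/- mice lay below every p110αhep+/+ mouse. Psat1 was lower in p110αhep-/- livers, with a log2 fold change of -0.60 ± 0.15 in fed CTRL mice (adjusted p = 0.00388) and of -0.84 ± 0.16 in fasted HFD mice (adjusted p = 5.93e-05). In fed HFD mice the difference was -0.53 ± 0.15 (adjusted p = 0.00758, under the fold threshold), and in fasted CTRL mice -0.16 (adjusted p = 0.474). The difference in fed HFD mice was called with the processed signal (-0.88, adjusted p = 0.0164) and without p110αhep-/- replicate 6 (-0.61), and it ran from -0.88 to -0.37 over 13 alternative settings. The difference in fed CTRL mice ran from -1.01 to -0.45, was under the fold threshold with the normexp correction (-0.45) and with a replicate block (-0.58), and was so too without p110αhep+/+ replicate 1 or 4 or p110αhep-/- replicate 2, 3 or 6, with values from -0.58 to -0.53. In the same comparisons the bile duct marker Spp1 and Cfd were also called lower in p110αhep-/- livers. So were Col1a1 (-2.315), S100a8 (-1.29), S100a9 (-1.52), Krt19 (-0.73) and Alas2 (-0.59) in fasted HFD mice, and Lyve1 (-1.13) and Lrat (-0.65) in fed CTRL mice. Cps1 and Cela2a were called higher in both comparisons, and Tat (0.73) in fed CTRL mice. The part of these markers in the Psat1 results was not tested.

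Fasted p110αhep+/+ mice on CTRL diet had Psat1 signals of 5.53 to 6.43 (median 5.75), and 5 of 6 were below every fed mouse. Psat1 fell by 0.75 ± 0.15 with fasting there (adjusted p = 0.000131). The stellate markers Lrat (-0.68) and Col1a1 (-0.83) were called lower and the hepatocyte marker Tat (0.88) higher in the same comparison, and their part was not tested. In fasted p110αhep+/+ mice HFD was followed by higher Psat1 than CTRL diet (0.78 ± 0.15, adjusted p = 0.000287). In this comparison Spp1 (0.99), Col1a1 (1.83), Cfd (2.69), S100a8 (1.46) and S100a9 (1.61) were called higher too, and their part was not tested. Of the 5 arrays on which Psat1 was not well above background, 2 were of fasted p110αhep-/- CTRL mice, and 1 each of fasted p110αhep+/+ CTRL, fed p110αhep-/- HFD and fasted p110αhep-/- HFD mice. The folds of Psat1 changed with the treatment of background. With the background-subtracted processed signal the fasting difference was -1.31, and with a normexp background correction it was -0.54, which is under the fold threshold and so not called. For diet in fasted p110αhep+/+ mice the same 2 settings gave 1.298 and 0.55, the second again not called. For genotype in fasted HFD mice they gave -1.59 and -0.60, both called. With the processed signal the fasting differences in p110αhep-/- mice were called too, at -0.95 on CTRL diet and -0.91 on HFD, against -0.31 (adjusted p = 0.12) and -0.43 (adjusted p = 0.0539) otherwise. The genotype by diet interaction of Psat1 in fasted mice was -0.68 (adjusted p = 0.0616) and was called in 4 fits with a mouse left out (-0.78 to -0.70). Diet by fasting in p110αhep+/+ mice was 0.64 (adjusted p = 0.0988), called without fasted CTRL replicate 1 (0.71, adjusted p = 0.0448).

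Phgdh encodes the first enzyme of serine synthesis and was also dim, well above background on 44 of 48 arrays. Group medians lay between 5.77 in fasted p110αhep-/- CTRL mice and 6.23 in fed p110αhep-/- CTRL mice. The fasting difference in p110αhep-/- CTRL mice was the only one of the 4 with an adjusted p at or under 0.05 (-0.54 ± 0.19, adjusted p = 0.0237), and its fold was 1.45. The highest mice, at 7.53 (fed p110αhep+/+ HFD replicate 5) and 7.20 (a fed p110αhep-/- CTRL mouse), were both fed. In fed p110αhep-/- mice the diet difference of Phgdh was also -0.54 (adjusted p = 0.074). With the processed signal the fasting difference in p110αhep-/- CTRL mice (-0.94, adjusted p = 0.0165) and this diet difference (-1.01, adjusted p = 0.0376) were called. Each was called in 2 fits with a mouse left out as well, at -0.63 and -0.62 for fasting and -0.63 and -0.59 for diet.

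The wider pathway was covered by lists of related genes, each read by its calls and its median beside those of all genes, whose median log2 fold change was between -0.02 and 0.03 in every comparison. Of 7 genes of eIF2α and its kinases and phosphatases, 0 were called in 10 of the 12 comparisons, and Eif2s1, the eIF2α subunit itself, was called lower with fasting in p110αhep+/+ HFD mice (-1.33 ± 0.43, adjusted p = 0.0174). It was also lower in fed p110αhep-/- than in fed p110αhep+/+ HFD mice (-1.22 ± 0.46, adjusted p = 0.0372). Both comparisons share the fed p110αhep+/+ HFD group. In fed p110αhep+/+ mice Eif2s1 was 1.09 ± 0.43 higher on HFD than on CTRL diet (adjusted p = 0.0648, not called). Its fasting difference was -0.19 in p110αhep+/+ CTRL mice, and -0.02 and -0.05 in p110αhep-/- mice on CTRL diet and HFD. Of 12 tRNA synthetases, many of which are ATF4 targets in cultured cells, 0 were called in any of the 12 comparisons, with medians from -0.25 to 0.09. Of 7 tested genes of other amino acid and one-carbon synthesis, Cth, an enzyme of cysteine synthesis, rose with fasting in p110αhep+/+ CTRL mice (0.86 ± 0.14, adjusted p = 8.36e-06) and was higher in p110αhep-/- in fed HFD mice (0.88), and Psph, the last enzyme of serine synthesis, was lower with fasting in all 4 settings. Its log2 fold change was -0.64 ± 0.09 in p110αhep-/- CTRL mice (adjusted p = 2.9e-07), the setting past the fold threshold, and -0.48, -0.52 and -0.46 in p110αhep+/+ CTRL, p110αhep+/+ HFD and p110αhep-/- HFD mice (adjusted p of 4.42e-05, 6.99e-06 and 0.000394).

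Among 7 tested amino acid transporters, 2, 1, 2 and 3 were called higher with fasting and 0 lower in p110αhep+/+ CTRL, p110αhep+/+ HFD, p110αhep-/- CTRL and p110αhep-/- HFD mice. Slc1a4, a transporter of small neutral amino acids, rose in all 4 settings, from 0.63 ± 0.14 (adjusted p = 0.000783) to 0.95 ± 0.17 (adjusted p = 2.53e-05). Slc38a2, a glutamine transporter, rose in 3, by 0.92 to 1.12. Between genotypes 2, 1, 1 and 2 transporters were called higher in p110αhep-/- and 1, 1, 0 and 0 lower in fed CTRL, fed HFD, fasted CTRL and fasted HFD mice. Slc1a4 was the one called higher in fed HFD mice (0.84 ± 0.15, adjusted p = 3.34e-05), and it was called higher in fed CTRL (0.81) and fasted HFD mice (1.16) too. Slc38a2 was called higher in p110αhep-/- in the settings other than fed HFD (0.60 to 0.76). Slc6a9, a glycine transporter, was the one called lower, in fed mice on CTRL diet (-0.77 ± 0.12, adjusted p = 1.18e-05) and on HFD (-1.51 ± 0.12, adjusted p = 9.24e-13). It rose with fasting in p110αhep-/- HFD mice (1.37 ± 0.13, adjusted p = 2.52e-10), and on HFD these were the directions that Ddit4 had.

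The 5 tested other ATF4 targets gave the largest medians. With fasting 3 of 5 were called higher in p110αhep+/+ CTRL mice (median 1.21), p110αhep-/- CTRL mice (1.17) and p110αhep-/- HFD mice (1.08), and 0 in p110αhep+/+ HFD mice (0.38). The genes called in these 3 settings were Fgf21, Gdf15 and Cdkn1a, which also answer to PPARα, p53 and other factors. Gdf15, a stress-induced cytokine, rose by 1.65 ± 0.32 (adjusted p = 9.59e-05) with fasting in p110αhep+/+ CTRL mice. Fgf21, the fasting hepatokine, rose by 3.43 ± 0.24 (adjusted p = 4.06e-15) in p110αhep-/- CTRL mice. In fed HFD mice 3 of 5 were called lower in p110αhep-/- (median -1.20), the comparison in which Ddit4 was also lower. Fgf21 was lower in p110αhep-/- in fed CTRL mice too (-0.72) and higher in fasted CTRL mice (0.80), and in fasted HFD mice 0 of 5 were called. On HFD 4 of 5 were called higher in fed p110αhep+/+ mice (median 1.07), and 1 in each of the other diet comparisons, while Fgf21 was called lower on HFD in fasted mice of both genotypes (-1.22 and -1.75). Vldlr, a lipoprotein receptor, was called higher on HFD in all 4 diet comparisons (1.00 to 1.75).

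Of 5 partner transcription factors, Cebpb, a C/EBP partner of ATF4, was called higher with fasting in 3 settings (0.83 to 1.04). In p110αhep+/+ HFD mice its difference of 0.43 ± 0.15 (adjusted p = 0.0297) was under the fold threshold. Atf3 was higher on HFD in fed p110αhep+/+ mice (1.05 ± 0.21, adjusted p = 0.000239) and lower in fed p110αhep-/- than p110αhep+/+ mice on HFD (-0.97 ± 0.22, adjusted p = 0.000677), and in fasted mice it was called the same ways (1.07 and -1.10). Jdp2 was called higher with fasting in p110αhep-/- mice on both diets (0.67 and 0.82). Of 10 ER chaperones and unfolded protein response genes, 4 were called lower with fasting in p110αhep-/- CTRL mice (median -0.56), and 5 were called higher on HFD in fasted p110αhep-/- mice (median 0.61), the 2 comparisons in which Ddit3 was called in the same directions. Sdf2l1, an ER chaperone cofactor, fell by 2.16 ± 0.36 (adjusted p = 5.99e-06) and rose by 2.16 ± 0.37 (adjusted p = 9.32e-05) in these. In the diet by fasting interaction of p110αhep-/- mice, 8 of 10 chaperone genes were called higher (median 0.68) and 0 of the 10 members were. A list of 8 genes known to answer to fasting was also chosen with earlier results of these data known. It is thus a description and no independent check of the fast. On CTRL diet 8 of 8 were called in each genotype (5 higher, 3 lower), and Fasn, a lipogenic enzyme, fell by 4.47 ± 0.19 in p110αhep+/+ mice. On HFD 2 were called higher and 2 lower in p110αhep+/+ mice, and 1 higher and 2 lower in p110αhep-/- mice.

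**Figure D5:**
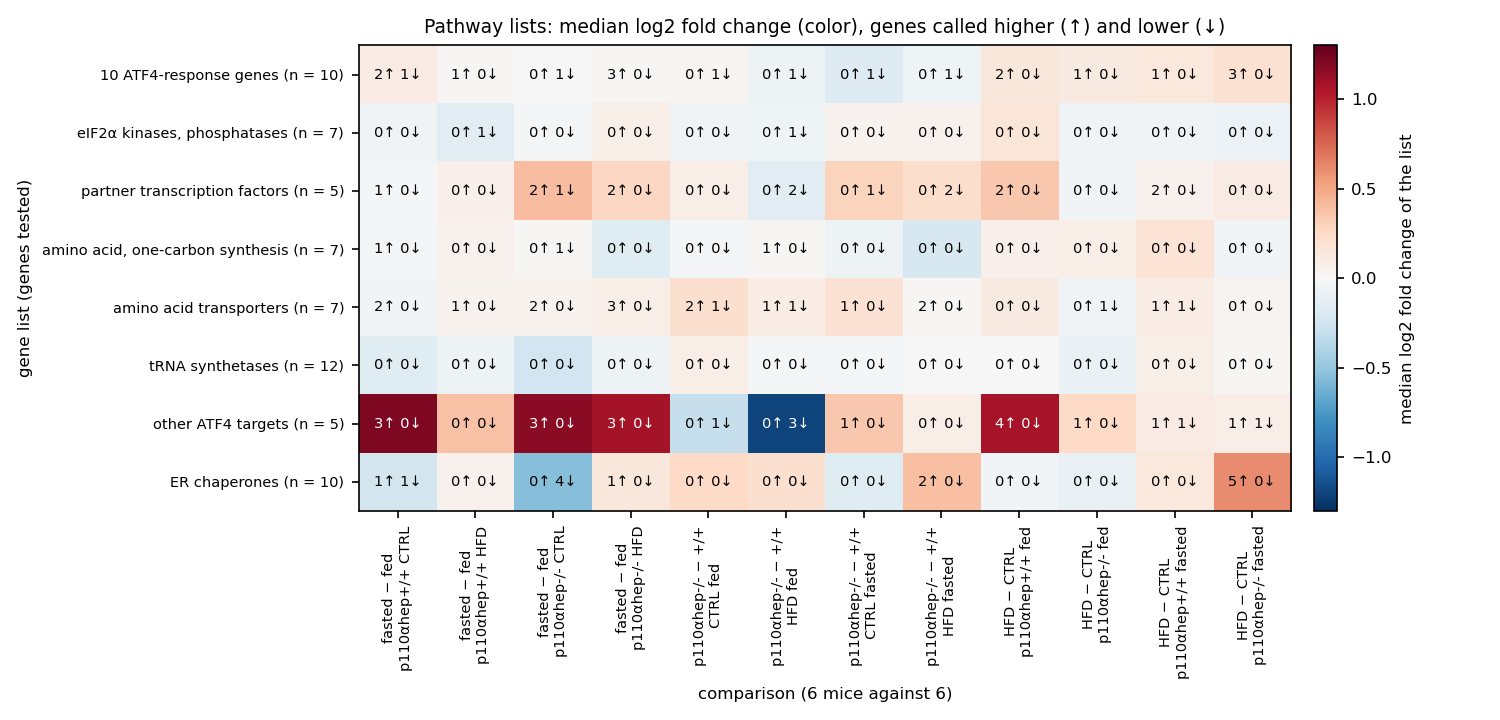
Median log2 fold change (color) of the 10 genes and of 7 related lists (rows, with the number of genes tested) in the 12 comparisons, with the numbers of genes called higher and lower printed in each cell. The other ATF4 targets reach medians of 1.21 and -1.20, and the 12 tRNA synthetases have 0 calls in every column.

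Whether the members vary together from mouse to mouse was asked on the deviations of each mouse from its group mean over all 48 mice. None of the 45 pairs passed after Benjamini-Hochberg adjustment, by Pearson's r or by Spearman's rho (0 pairs each), and 2 and 3 pairs had an unadjusted p under 0.05 by a 2-sided permutation test within groups (100000 draws). Pearson's r lay between -0.30 and 0.45, and was above 0 in 32 of the 45 pairs. The largest r was that of Ddit4 and Sesn2, both inhibitors of mTORC1 signaling (r = 0.448, permutation p = 0.00536, adjusted p = 0.241, rho = 0.418, permutation p = 0.00592, adjusted p = 0.147), which was 0.392 without the 2 mice farthest from the median of Ddit4. It was 0.33 and 0.536 in the washing batches (24 mice each). Asns and Psat1 followed (r = 0.361, permutation p = 0.0352, adjusted p = 0.755, rho = 0.357, permutation p = 0.0197, adjusted p = 0.295), with 0.387 without the 2 farthest mice and 0.57 and 0.255 in the batches. By rho the largest was that of Ddit3 and Asns (rho = 0.435, permutation p = 0.00652, adjusted p = 0.147, r = 0.316, permutation p = 0.107, adjusted p = 0.755), with r of 0.245 without the 2 farthest mice and 0.152 and 0.378 in the batches.

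The genes outside the list whose signals were most like the mean of the 10 standardized members over the 48 arrays were Dyrk3 (Pearson's r = 0.711), BB189136 (0.688), Itfg1 (0.676), Crim1 (0.674) and Nupr1 (0.658). On the deviations from group means they were Nupr1 (0.682), Gdf15 (0.663), 2410089E03Rik (0.623), Ccr6 (0.616) and an Ensembl transcript without a gene name. Nupr1, a stress-induced chromatin protein known as a partner of this response, was in both lists. These values are descriptions over arrays that share diets, states and washing batches. Nupr1 itself was called lower in p110αhep-/- in 3 of 4 genotype comparisons, with log2 fold changes from -0.92 to -0.58.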

How the data were processed

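Liver RNA of 48 mice was measured on Agilent mouse arrays, 6 mice in each of 8 groups. Groups came from the sample labels. The authors labelled the RNA with cyanine 3 and scanned with Agilent Feature Extraction 10.10.1.1 (the submitters' processing notes also name limma). The deposited scanner files give each spot's intensity (median and mean), local background and flags (other values) without normalization, and a deposited table gives the authors' log2 values after filtering, batch correction and quantile normalization. It has 32437 rows, each column has a median of 7.69, and each column correlated with the values computed here at 1.00 over shared probes, with slopes of 0.9992 to 1.001 and median differences of -0.000831 to 0.000356 (log2).

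The log2 median signal was taken, outlier spots (92 to 151 per array) were left out, and spots of a probe were averaged. Probes well above background on at least 5 of 6 arrays of a group were kept (30794 of 56605). The washing batch was removed with limma and arrays were quantile normalized. Then 8 group means were fitted with array weights (0.354 to 1.72) in limma 3.58.1 (statmod 1.5.0, R 4.3.3). Fitted differences can therefore depart from those of plain means, in some cases in sign. Asns in p110αhep-/- HFD mice had plain means of 7.34 fed and 6.95 fasted, with a fitted fasting difference of 0.02. Chac1 in fed CTRL mice had plain means of 8.76 in p110αhep+/+ and 9.54 in p110αhep-/-, with a fitted difference of 1.09. P values were adjusted over all kept probes. A gene is its brightest kept probe, and probe positions are mm9. Signals of different probes were not compared. The fit was checked on simulated data. Precision is limited by the number of arrays.

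The members and all gene lists were chosen with earlier results of these data known. Named were the 10 members, Pik3ca, and of each pathway list up to 4 genes called with the largest change. Marker lists are given as sums. Alternatives were other signals, background corrections, scalings, filters, batch terms, weights, probe summaries and samples, and each mouse left out.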

Additional observations from a re-analysis of the deposited data

Results flagged for a closer look

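Among 80 sets of 6 mice (10 genes in 8 groups), 8 had a mouse whose gap to its nearest neighbor took most of the range, and chance marks about 1 in 20, or 4. All 8 were high values, and 7 were in p110αhep-/- mice. Asns stood out at 10.52 in replicate 3 of the fed p110αhep-/- HFD mice (next 7.32) and at 9.08 in replicate 6 of the fasted p110αhep-/- CTRL mice (next 7.70). In that fed replicate 3 Atf5 (16.54) and Phgdh (6.59) also stood apart. The others were Atf5 at 16.56 in replicate 5 and Psat1 at 6.288 in replicate 1 of the fasted p110αhep-/- HFD mice, Ddit3 at 9.333 in replicate 6 of the fed p110αhep-/- HFD mice, and Phgdh at 7.529 in replicate 5 of the fed p110αhep+/+ HFD mice.

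The effects that differed between groups by a tested interaction were those of Trib3 for genotype by fasting on CTRL diet (-0.996), for genotype by diet in fasted mice (0.84) and for diet by fasting in p110αhep+/+ mice (-0.82), and that of Atf5 for diet by fasting in p110αhep+/+ mice (-0.65). Without array weights 0 of these 4 were called (adjusted p 0.0552 to 0.145).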

How the results depend on the processing

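The counts of called members were 8 for fasting, 4 for genotype, 7 for diet and 4 for interactions. Of the 23 called results, 9 stayed called in every alternative and with each mouse left out, and 0 changed direction. Fasting calls were 14 with the processed signal scaled to the 75th percentile and 17 by adjusted p alone, where 28.4% to 35.4% of all genes passed. In alternatives other than adjusted p alone, the share of all genes called was not counted. Genotype calls were 9 by adjusted p alone, where 21.5% to 36.8% of all genes passed. They were 2 with probes above background on all arrays, where the Psat1 probe was not tested. Interaction calls were 1 with no filter on dim probes, 2 with the washing batch uncorrected, as a term, or with the deposited log2 values, and 0 without array weights, and the cause was not tested. With a mouse left out, the counts ranged from 7 to 10 for fasting, 3 to 5 for genotype, 6 to 9 for diet and 1 to 6 for interactions. Replicate numbers did not pair the mice (mean correlation of deviations 0.0189, from -0.341 to 0.32, with 10 of 48 arrays closest to their own number). With the replicate number as a block the counts were 9, 3, 7 and 2. The 0 pairs of members that vary together stayed 0 with the processed signal and with slide means removed. Psat1 and Phgdh are near background, which limits their folds.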
